A study of Mus musculus with 18 samples.

Results

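The AP-1 and BATF family factors followed here are 9 mouse genes, Batf, Batf3, Jun, Junb, Jund, Fos, Fosb, Fosl1 and Fosl2, taken by gene symbol from the deposited expression tables of CD4+ T cells. All 9 were in both tables, among 22783 gene symbols in experiment 1 and 16639 in experiment 2. Jun and Jund each had 2 distinct entries at the same locus in experiment 1, and these were summed. FPKM is a level scaled by transcript length and by the number of mapped fragments of the library. Genes were tested where they averaged 1 FPKM or more across an experiment. In experiment 1, 8 members did, and Fosb, with a mean of 0.0989 FPKM, did not. In experiment 2, 7 members passed, and Fosb and Fosl1 did not.

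AP-1 is a dimer of basic leucine zipper proteins. JUN proteins pair with themselves, with FOS proteins or with BATF proteins, and antigen receptor and costimulatory signals raise AP-1 activity in T cells through MAP kinases. BATF and BATF3 lack the transactivation domain of FOS. With a JUN partner they recruit IRF4 or IRF8 to composite DNA elements, and BATF is required for several helper T cell programmes.

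In experiment 1, naive CD4+ T cells sorted from spleens of C57BL/6 mice were tKO, carrying Egln1 fl/fl, Egln2 fl/fl, Egln3 fl/fl and Cd4Cre, or WT, which also carried Cd4Cre. Each genotype was cultured at 0, 0.2 or 2 ng/ml TGF-b, with 2 libraries per group and 12 in all. Egln1, Egln2 and Egln3 encode the oxygen-sensing prolyl hydroxylases PHD2, PHD1 and PHD3, which mark HIF proteins for degradation, and Cd4Cre is a recombinase that acts from thymic T cell development onward. In experiment 2, cells labelled wild type received 1 mM DMOG, an inhibitor of 2-oxoglutarate-dependent dioxygenases that include the PHD enzymes, or vehicle, both at 2 ng/ml TGF-b, with 3 libraries each. All cultures were stimulated through CD3 and CD28 and were collected on day 4. The labels give no age and do not say whether libraries of a group came from separate animals, so p-values measure the spread between these libraries, which in WT and in experiment 2 may be technical. The 3 libraries of a genotype that share a replicate number across the doses are called a labelled series here, which gives 4 series.

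The FPKM of a library summed to between 548974 and 856147 in experiment 1 and to between 386382 and 443888 in experiment 2, and absolute depth is unknown. All 10 T cell markers were at 1 FPKM or more in every library, with summed levels of 2532 to 3236 FPKM in tKO and 3198 to 3783 in WT, and of 1310 to 1678 in DMOG and 2801 to 3222 in vehicle. The tKO libraries with replicate number 1 carried Y-linked transcripts, 60.5 to 67.6 FPKM over 4 genes, while every other library of experiment 1, the tKO libraries of replicate 2 included, was at 0.008 FPKM or lower, so the tKO series differ in their source of cells. Egln1 lay at 92.8 to 122 FPKM in tKO libraries, against 20.4 to 44.3 in WT, Egln3 at 77.4 to 140.2 in tKO, against 5.68 to 18.7 in WT, and Egln2 at 19.9 to 38.99 in tKO, against 35.6 to 48.8 in WT. Levels given per whole gene cannot tell whether the floxed exons were read, so they do not check the deletion.

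HIF proteins are known to bind DNA at a core that reads ACGTG or GCGTG. The promoters of the 4 members that were higher both in tKO and with DMOG, Batf, Batf3, Junb and Fosl2, and of Jund, which was higher in neither, are therefore shown. Each is the 250 bases upstream of the gene's start, 5′ to 3′ on the gene's strand, from RefSeq on GRCm38.p6. Capitals mark matches to ACGTG or GCGTG on either strand. Batf is at chr12:85686470-85686719 on the plus strand, Batf3 at chr1:191098164-191098413 on the plus strand, Junb at chr8:84978749-84978998 on the minus strand, Fosl2 at chr5:32136222-32136471 on the plus strand and Jund at chr8:70697489-70697738 on the plus strand.
Batf: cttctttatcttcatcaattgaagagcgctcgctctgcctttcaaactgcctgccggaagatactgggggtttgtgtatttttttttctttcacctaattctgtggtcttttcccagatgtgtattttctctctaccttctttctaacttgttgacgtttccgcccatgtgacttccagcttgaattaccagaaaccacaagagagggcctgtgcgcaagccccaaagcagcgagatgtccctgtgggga
Batf3: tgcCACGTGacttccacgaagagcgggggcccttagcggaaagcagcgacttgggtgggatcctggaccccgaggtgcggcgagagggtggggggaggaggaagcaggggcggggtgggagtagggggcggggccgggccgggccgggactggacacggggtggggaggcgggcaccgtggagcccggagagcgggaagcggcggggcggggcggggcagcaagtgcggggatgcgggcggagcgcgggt
Junb: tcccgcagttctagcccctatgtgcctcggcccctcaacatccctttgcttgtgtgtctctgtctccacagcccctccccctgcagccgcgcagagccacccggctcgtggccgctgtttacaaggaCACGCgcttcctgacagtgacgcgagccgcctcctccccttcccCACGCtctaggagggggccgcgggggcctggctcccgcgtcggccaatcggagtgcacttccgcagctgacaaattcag
Fosl2: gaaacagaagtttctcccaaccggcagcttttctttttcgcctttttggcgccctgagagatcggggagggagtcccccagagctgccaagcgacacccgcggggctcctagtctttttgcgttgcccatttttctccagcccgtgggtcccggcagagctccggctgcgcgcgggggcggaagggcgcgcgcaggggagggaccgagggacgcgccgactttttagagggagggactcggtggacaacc
Jund: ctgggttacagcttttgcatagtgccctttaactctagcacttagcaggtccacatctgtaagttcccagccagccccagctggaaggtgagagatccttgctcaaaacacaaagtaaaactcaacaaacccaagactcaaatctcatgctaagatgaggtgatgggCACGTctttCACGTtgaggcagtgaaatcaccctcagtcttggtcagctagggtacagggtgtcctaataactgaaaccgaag
In the mm9 coordinates of the table of experiment 1, a different build, the genes Batf, Batf3, Junb, Fosl2 and Jund lie at chr12:87027405-87050037, chr1:192921767-192932827, chr8:87499652-87505267, chr5:32438844-32460212 and chr8:73221488-73225908. In Batf3 the 2 ACGTG matches overlap as a palindrome and begin at -247 and -246 from the start. Junb holds GCGTG, read on the other strand, at -123 and -79. Jund holds ACGTG, also on the other strand, at -83 and -74, and Batf and Fosl2 hold neither motif in this window. Among the other members with a promoter entry, Fos holds GCGTG at -229, and Jun and Fosb hold neither. Thus 4 of 8 members hold either motif, against 38.6% of the 32851 RefSeq promoter windows of the same length. ACGTG is in 16.6% of those windows and GCGTG in 28.2%. The AP-1 motif TGANTCA, found in 6.75% of windows, and the cAMP response motif TGACGTCA, found in 1.55%, are in none of the 8, on either strand. A match describes letters and not a bound site.

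Among the JUN genes, Junb had the highest level of the family in every tKO and DMOG group. JUNB is an AP-1 subunit known for its part in Th2 and Th17 cells. In tKO libraries Junb stood at 590.2 and 500.2 FPKM without TGF-b, at 630.3 and 489.7 with 0.2 ng/ml and at 613 and 546 at 2 ng/ml. In WT libraries it stood at 330.3 and 318 FPKM at 0 ng/ml, at 197 and 227 at 0.2 ng/ml and at 144 and 96.9 at 2 ng/ml. Every tKO library was above every WT library. The 3 tKO groups overlapped one another, while the WT groups stood apart in the order 0, 0.2 and 2 ng/ml. Averaged over the doses, the log2 fold change of tKO over WT on the log2(FPKM + 1) scale was 1.47 ± 0.12 (SE; adjusted p = 6.82e-07), a 2.77-fold difference.

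The Junb difference between genotypes was smallest without TGF-b. It was 0.74 ± 0.20 at 0 ng/ml (log2, SE; adjusted p = 0.0324), 1.39 ± 0.20 at 0.2 ng/ml (adjusted p = 0.000420) and 2.28 ± 0.20 at 2 ng/ml (adjusted p = 9.87e-06). The call at 0 ng/ml was lost with quantile normalization (adjusted p = 0.130), without the filter on low values (adjusted p = 0.0952) and when any 1 of 8 libraries was left out, namely those of tKO and WT at 0 ng/ml, tKO at 2 ng/ml and WT at 0.2 ng/ml (adjusted p up to 0.171). In WT, Junb fell by 1.45 on the log2 scale at 2 against 0 ng/ml (SE 0.20, adjusted p = 0.000422). In tKO the same contrast was 0.09 ± 0.20 (adjusted p = 0.801). The difference between those TGF-b effects, tested as an interaction, was 1.54 ± 0.28 (adjusted p = 0.0125). This interaction missed the threshold without the filter on low values (adjusted p = 0.0631) and without any of 5 single libraries, namely both of tKO at 2 ng/ml, tKO at 0 ng/ml replicate 2, WT at 0 ng/ml replicate 1 and WT at 2 ng/ml replicate 2 (adjusted p from 0.0593 to 0.0818).

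With DMOG, Junb was at 386, 356 and 372 FPKM, against 101, 76.8 and 82.8 FPKM with vehicle. The groups were far apart, and the log2 fold change was 2.09 ± 0.12 (SE; adjusted p = 8.91e-11). At the same TGF-b dose tKO over WT had 2.28 ± 0.20. The tables were normalized separately, so the difference between these values was not tested.

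Jun, the founding JUN protein and a strong transactivator, was higher at higher TGF-b doses in both genotypes. In tKO it had 16.8 and 10.1 FPKM at 0 ng/ml, 48.5 and 28.3 at 0.2 ng/ml and 87.1 and 63.3 at 2 ng/ml. WT libraries had 16.1 and 8.96 FPKM at 0 ng/ml, 27.1 and 19.8 at 0.2 ng/ml and 34.9 and 30.8 at 2 ng/ml. The genotypes overlapped at 0 ng/ml and stood apart at 0.2 and 2 ng/ml. In all 6 groups of experiment 1 replicate 1 was higher than replicate 2. At 2 against 0 ng/ml, Jun rose by 2.42 ± 0.33 in tKO (log2, SE; adjusted p = 0.000387) and by 1.37 ± 0.33 in WT (adjusted p = 0.0127). That WT call missed the threshold without WT at 0 ng/ml replicate 2 (adjusted p = 0.137), without either WT library at 2 ng/ml and without the filter (adjusted p = 0.0672). The interaction was 1.05 ± 0.46 and missed the threshold (adjusted p = 0.244), but passed with the labelled series as a block (adjusted p = 0.0422). With that block Jun also passed at 0.2 against 0 ng/ml in WT, at 0.89 (adjusted p = 0.0283).

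Between genotypes, Jun was 1.15 ± 0.33 higher in tKO at 2 ng/ml (log2, SE; adjusted p = 0.0295). This did not hold without the filter (adjusted p = 0.111) or when any of the 4 libraries at that dose was left out (adjusted p from 0.0757 to 0.228). It did not pass at 0 ng/ml (0.11 ± 0.33, adjusted p = 0.890) or at 0.2 ng/ml (0.66 ± 0.33, adjusted p = 0.197, or 0.0349 with the replicate number as a block). Over the doses it passed with 0.64 ± 0.19 (adjusted p = 0.0227). With 1 mean per labelled series it missed the threshold (adjusted p = 0.0724), and without the tKO series that carried Y-linked transcripts it had 0.32 (adjusted p = 0.254). Without the WT series of replicate 2 it had 0.41 and lost its call, and without the filter it missed the threshold too (adjusted p = 0.0872). Leaving out any single tKO library of replicate 1 or WT library of replicate 2 also lost the call, with values from 0.51 to 0.61. With DMOG, Jun had 33.5, 26.8 and 32.3 FPKM, against 28.2, 26.4 and 28.4 FPKM with vehicle. These groups overlapped, and the log2 difference of 0.15, with a 95% interval from -0.09 to 0.39, did not pass (adjusted p = 0.276).

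Jund, a JUN protein known for broad expression in resting and stimulated cells, was abundant in all groups and passed in no comparison. In tKO it had 305 and 264 FPKM at 0 ng/ml, 329.8 and 246 at 0.2 ng/ml and 239.7 and 251 at 2 ng/ml. WT libraries had 326 and 336 FPKM at 0 ng/ml, 300.2 and 307 at 0.2 ng/ml and 268 and 286 at 2 ng/ml. The log2 difference over the doses was -0.16, with a 95% interval from -0.37 to 0.04 (adjusted p = 0.235). Without the tKO series that carried Y-linked transcripts it was -0.26 and passed (adjusted p = 0.0360), as it did without tKO at 0.2 ng/ml replicate 1 alone (-0.23, adjusted p = 0.0373). With DMOG Jund had 130.02, 106 and 109 FPKM, against 150.0, 93.5 and 92.7 with vehicle (log2 difference 0.07 ± 0.16, adjusted p = 0.729). In experiment 2 replicate 1 was the highest Jund library of each group.

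**Figure D1:**
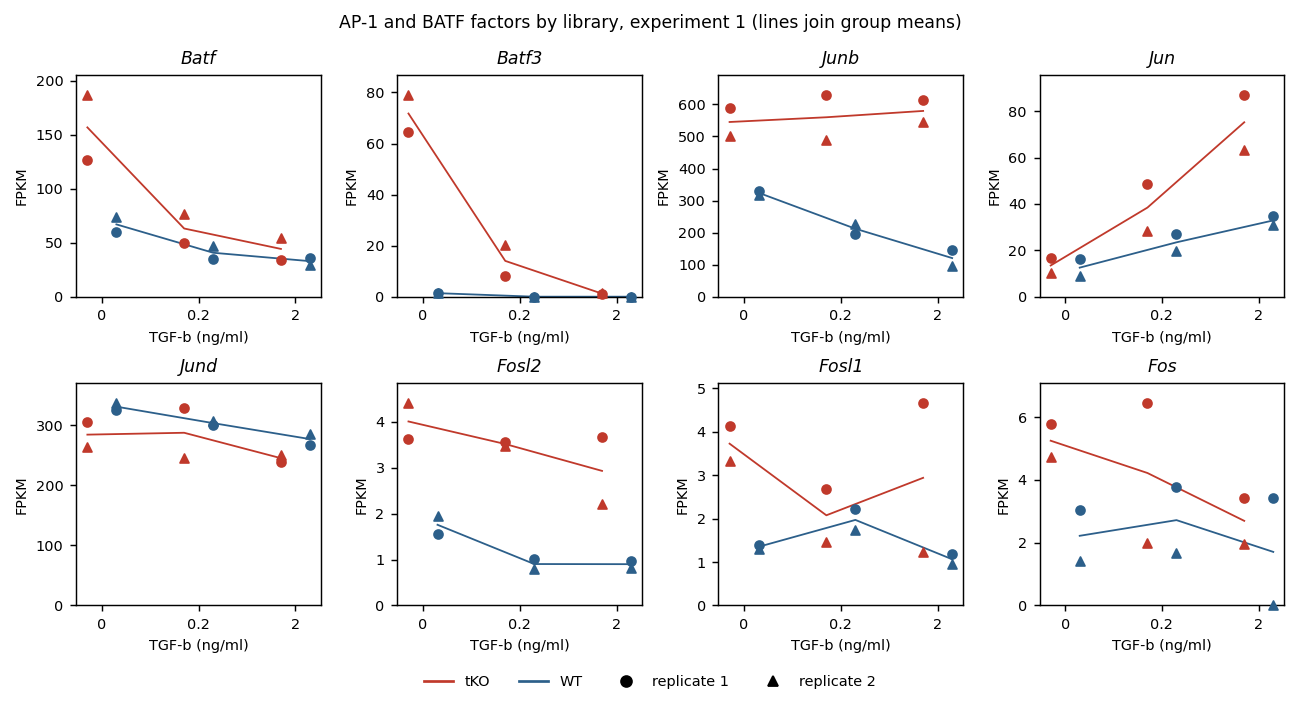
FPKM of the 8 tested members in each library of experiment 1 by TGF-b dose (ng/ml); points are libraries, circles replicate 1 and triangles replicate 2, and lines join group means, tKO in red and WT in blue. Junb stays between 489.7 and 630.3 FPKM in tKO while it steps down with dose in WT, Jun rises with dose in both genotypes, and Batf3 is high in tKO at 0 ng/ml.

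The make-up of the family's transcripts differed between the groups. The summed FPKM of the 9 genes was 867 to 1117 in tKO and 446 to 744 in WT, and 529 to 592 in DMOG and 212 to 299.9 in vehicle. Junb took 47.5% to 62.1% of it in tKO libraries and 21.7% to 44.7% in WT libraries, with no overlap. Jund took 24.3% to 30.6% in tKO and 44.1% to 64.3% in WT. In experiment 2, Junb took 65.2% to 67.4% with DMOG and 33.7% to 37.4% with vehicle, and Jund 19.8% to 21.97% with DMOG and 41.8% to 50.0% with vehicle. Junb thus ranked above Jund, with library ranges apart, in all 3 tKO groups and with DMOG. In WT the order was Jund above Junb at 0.2 and 2 ng/ml, and at WT 0 ng/ml and with vehicle their ranges overlapped. These shares describe transcripts and not proteins.

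**Figure D2:**
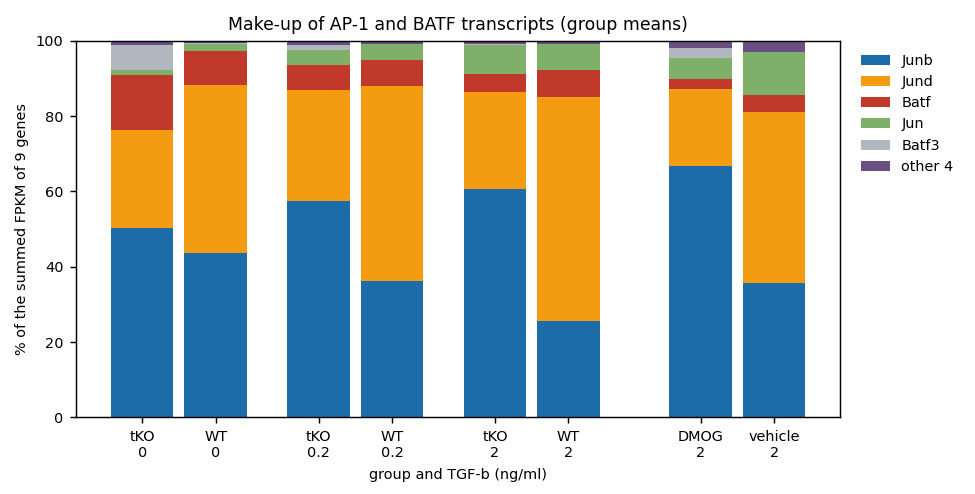
Share of the summed FPKM of the 9 genes (%), as stacked group means, for tKO beside WT at each TGF-b dose (ng/ml) and for DMOG beside vehicle. Junb is the largest part in the tKO and DMOG bars, and Jund in the WT and vehicle bars.

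Batf3 had the widest range of the family. BATF3 is best known for the development of cross-presenting dendritic cells and is also found in activated T cells. In tKO it had 64.4 and 79.1 FPKM at 0 ng/ml, 7.95 and 20.1 at 0.2 ng/ml and 1.14 and 1.26 at 2 ng/ml. In WT it had 1.35 and 1.42 FPKM at 0 ng/ml, and all 4 WT libraries at 0.2 and 2 ng/ml were listed at 0. An exact 0 in an FPKM table can be a failed estimate. No 2 groups overlapped except those listed at 0, and WT at 0 ng/ml lay just above tKO at 2 ng/ml.

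Batf3 was higher in tKO by 4.92 ± 0.36 at 0 ng/ml (log2, SE; adjusted p = 2.40e-06), by 3.78 ± 0.36 at 0.2 ng/ml (adjusted p = 1.45e-05) and by 1.14 ± 0.36 at 2 ng/ml (adjusted p = 0.0487). The values against WT at 0.2 and 2 ng/ml rest on libraries listed at 0 and were 6.99 and 3.70 with a pseudocount of 0.1 FPKM in place of 1, beside 5.59 at 0 ng/ml, so the order of the first 2 doses turned. The call at 2 ng/ml was lost with quantile normalization (adjusted p = 0.119), without the filter (adjusted p = 0.110) and without any of 10 single libraries, every library except tKO at 0.2 ng/ml (adjusted p up to 0.194). Over the doses the log2 fold change was 3.28 ± 0.21 (adjusted p = 9.29e-08), 3.55 without the tKO series that carried Y-linked transcripts, and 5.43 with the lower pseudocount.

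Batf3 was lower with TGF-b in tKO, with a log2 difference of -2.40 ± 0.36 at 0.2 against 0 ng/ml (SE; adjusted p = 0.00303) and of -5.04 ± 0.36 at 2 against 0 ng/ml (adjusted p = 2.79e-06). In WT at 2 against 0 ng/ml, where the treated libraries were listed at 0, the value was -1.25 ± 0.36 (adjusted p = 0.0324). That call was lost without any library of either WT group, without either tKO library at 2 ng/ml and without the filter (adjusted p from 0.0503 to 0.139), and the value was -3.89 with the lower pseudocount. At 0.2 against 0 ng/ml in WT it was also -1.25 and missed the threshold (adjusted p = 0.127), but passed without tKO at 0.2 ng/ml replicate 1 or 2 (adjusted p = 0.0310 and 0.0339) and, at -3.89, with the lower pseudocount (adjusted p = 0.00469). The interaction of -3.79 ± 0.51 passed (adjusted p = 0.00201) on the log2(FPKM + 1) scale. With the lower pseudocount it was -1.89 and did not pass (adjusted p = 0.221).

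With DMOG, Batf3 had 14.9, 17.2 and 13.6 FPKM, while 2 vehicle libraries were listed at 0 and the third had 0.0583 FPKM. The groups were far apart, with a log2 fold change of 3.99 ± 0.11 (SE; adjusted p = 6.28e-15), or 7.03 with the lower pseudocount. At the same dose of TGF-b, tKO cells had 1.14 and 1.26 FPKM of Batf3. The difference between the DMOG and tKO effects was not tested.

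Dendritic cell markers were read beside Batf3. Their summed level was 2.70 to 6.39 FPKM in tKO and 0.512 to 3.25 in WT, and 1.5995 to 2.48 in DMOG and 0.408 to 0.613 in vehicle, over 5 of 6 list genes in experiment 1 and 4 of 6 in experiment 2. Most of it was Zbtb46 in tKO, WT and DMOG libraries, and Flt3 reached 1.08 FPKM in WT at 0.2 ng/ml. Zbtb46 lay at 2.70 to 6.39 FPKM in tKO and 0.387 to 3.24 in WT, and at 1.56 to 2.32 with DMOG and 0.182 to 0.285 with vehicle. Clec9a was listed at 0 in all 12 libraries of experiment 1, and Itgax and Siglech in 11 of 12 each. Xcr1, read in experiment 2, was at 0.0237 to 0.0779 FPKM with DMOG and at 0.149 to 0.284 with vehicle. The part of other cells in the result was not tested, and in bulk RNA fewer cells of a type and less RNA per cell cannot be told apart.

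Batf, required for Th17, Th9 and follicular helper differentiation, was highest in tKO without TGF-b. In tKO it had 127 and 187 FPKM at 0 ng/ml, 50.0 and 76.4 at 0.2 ng/ml and 33.8 and 54.7 at 2 ng/ml. In WT it had 59.7 and 74.2 FPKM at 0 ng/ml, 34.8 and 46.7 at 0.2 ng/ml and 36.1 and 29.7 at 2 ng/ml. In the order of group means, only tKO at 0 ng/ml stood apart from its neighbour, WT at 0 ng/ml, and all later neighbours overlapped. At the same dose, the genotypes stood apart at 0 and 0.2 ng/ml and overlapped at 2 ng/ml. Batf was higher in tKO by 1.20 ± 0.28 at 0 ng/ml (log2, SE; adjusted p = 0.0143), a call lost without the filter (adjusted p = 0.0795), without WT at 0 ng/ml replicate 1 (adjusted p = 0.132) and without tKO at 0 ng/ml replicate 2 (adjusted p = 0.161). At 0.2 and 2 ng/ml it did not pass (0.61 ± 0.28, adjusted p = 0.163, or 0.0487 without tKO at 0.2 ng/ml replicate 1, and 0.38 ± 0.28, adjusted p = 0.392).

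Averaged over the doses, Batf was 0.73 ± 0.16 higher in tKO (log2, SE; adjusted p = 0.00420). Without the tKO series of replicate 2 it was 0.42 (adjusted p = 0.0630), without the WT series of replicate 1 it was 0.65 (adjusted p = 0.0900), and without the tKO series that carried Y-linked transcripts it was 1.03 (adjusted p = 0.00134). Batf was lower at 2 than at 0 ng/ml TGF-b, with a difference of -1.81 ± 0.28 in tKO (adjusted p = 0.000992) and of -1.001 ± 0.28 in WT (adjusted p = 0.0274). In WT the call was lost without any of the 4 libraries compared (adjusted p up to 0.179) and without the filter. The interaction of -0.81 ± 0.39 missed the threshold (adjusted p = 0.285). At 0.2 against 0 ng/ml in tKO, Batf fell by 1.30 (SE 0.28, adjusted p = 0.0267), a call lost without tKO at 0 ng/ml replicate 2 (adjusted p = 0.209), without tKO at 0.2 ng/ml replicate 1 (adjusted p = 0.0680) and without the filter (adjusted p = 0.120). With DMOG, Batf had 14.2, 14.6 and 14.3 FPKM, against 12.8, 9.03 and 10.8 with vehicle. The groups did not overlap, and the log2 fold change was 0.39 ± 0.12 (adjusted p = 0.0111), which missed the threshold without vehicle replicate 2 (adjusted p = 0.0687).

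Among the FOS genes, Fosl2 was the member that passed. FOSL2 (FRA2) is a FOS protein known to restrain parts of the Th17 programme. In tKO it had 3.62 and 4.40 FPKM at 0 ng/ml, 3.55 and 3.48 at 0.2 ng/ml and 3.66 and 2.20 at 2 ng/ml. In WT it had 1.56 and 1.96 FPKM at 0 ng/ml, 1.00 and 0.803 at 0.2 ng/ml and 0.9754 and 0.823 at 2 ng/ml. Every tKO library was above every WT library. Over the doses the log2 fold change was 1.05 ± 0.18 (SE; adjusted p = 0.000640), and it was 0.99 without the tKO series that carried Y-linked transcripts (adjusted p = 0.00694).

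By dose, Fosl2 in tKO against WT had 0.86 ± 0.31 at 0 ng/ml (log2, SE; adjusted p = 0.111), 1.25 ± 0.31 at 0.2 ng/ml (adjusted p = 0.0152) and 1.03 ± 0.31 at 2 ng/ml (adjusted p = 0.0392). The call at 0.2 ng/ml was lost without either WT library or tKO replicate 2 at that dose (adjusted p up to 0.0958). That at 2 ng/ml was lost with quantile normalization (adjusted p = 0.0832) and without any of 7 libraries, the 4 at that dose, both of WT at 0 ng/ml and WT at 0.2 ng/ml replicate 1 (adjusted p up to 0.244). With the lower pseudocount the value at 2 ng/ml was 1.56. With DMOG, Fosl2 had 9.31, 5.77 and 6.60 FPKM, against 3.48, 3.22 and 3.35 with vehicle. DMOG replicate 1 was the highest, the groups did not overlap, and the log2 fold change was 0.90 ± 0.13 (adjusted p = 2.07e-05).

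Fos, the immediate early partner of JUN, and Fosl1 (FRA1) were low in all groups on day 4 of stimulation. In tKO, Fos had 5.78 and 4.71 FPKM at 0 ng/ml, 6.43 and 2.00 at 0.2 ng/ml and 3.44 and 1.95 at 2 ng/ml. In WT it had 3.03 and 1.41 FPKM at 0 ng/ml, 3.77 and 1.66 at 0.2 ng/ml, and 3.41 FPKM and a value listed at 0 at 2 ng/ml. At 0 ng/ml the genotypes stood apart, with tKO higher, but the difference did not pass (limma, adjusted p = 0.385). At 0.2 and 2 ng/ml they overlapped. Neighbours in the order of group means all overlapped, and the difference of 0.73 ± 0.35 over the doses did not pass (log2, SE; adjusted p = 0.151). It passed at 1.35 without the WT series of replicate 1 (adjusted p = 0.0259) and at 1.09 without WT at 2 ng/ml replicate 1 (adjusted p = 0.0176). With DMOG, Fos had 2.60, 1.72 and 2.14 FPKM, against 2.36, 2.36 and 2.16 with vehicle (-0.07 ± 0.11, adjusted p = 0.593). In tKO, Fosl1 had 4.13 and 3.32 FPKM at 0 ng/ml, 2.68 and 1.47 at 0.2 ng/ml and 4.65 and 1.23 at 2 ng/ml. WT libraries had 1.39 and 1.31 FPKM at 0 ng/ml, 2.21 and 1.73 at 0.2 ng/ml and 1.18 and 0.944 at 2 ng/ml. Fosl1 stood apart between genotypes at 0 and 2 ng/ml but with unequal tKO libraries at 2 ng/ml, and its difference over the doses, 0.60 ± 0.24, did not pass (adjusted p = 0.0765). Without tKO at 2 ng/ml replicate 2 it was 0.83 and passed (adjusted p = 0.0107). Its entry overlaps Ccdc85b, so reads could belong to either gene.

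In experiment 2, Fosl1 lay between 0.508 and 0.936 FPKM with DMOG and between 0.473 and 0.890 with vehicle. Fosb, another immediate early FOS gene, lay between 0.00943 and 0.323 FPKM in tKO and between 0.0272 and 0.170 in WT, and between 0.574 and 0.864 with DMOG and 0.654 and 1.04 with vehicle. The groups overlapped in each case, and neither gene was tested there.

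**Figure D3:**
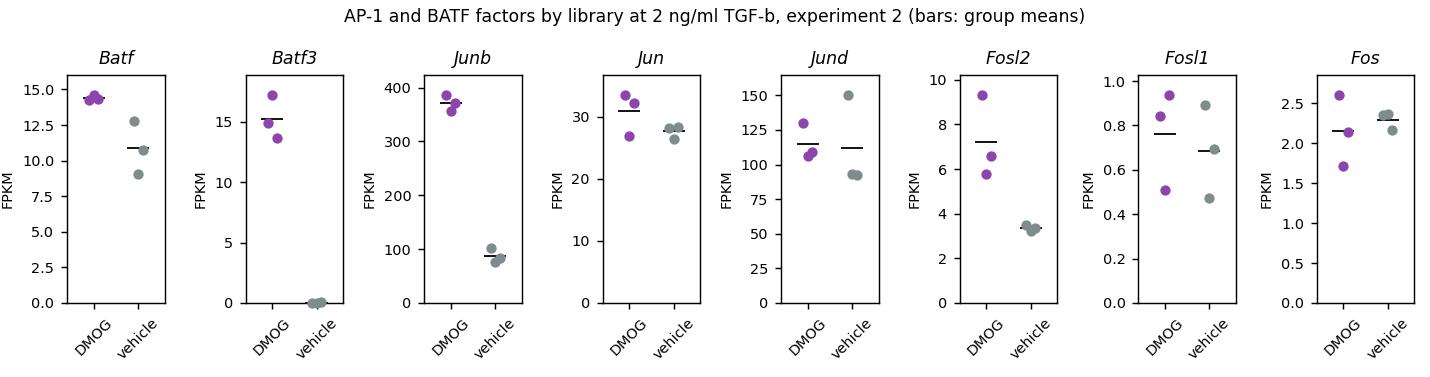
FPKM of 8 members in each library of experiment 2, all at 2 ng/ml TGF-b, with DMOG left and vehicle right; points are libraries and bars are group means. Batf, Batf3, Junb and Fosl2 do not overlap between the groups, and Jun, Jund, Fos and Fosl1 do.

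Counted over the family, 5 of the 8 tested members were higher in tKO over the doses and none was lower, beside 27.2% of all 10354 genes called in either direction, 13.9% higher and 13.3% lower. Their median log2 fold change was 0.73, against -0.02 for all genes. The fit reported counts the libraries of a labelled series as separate. With 1 mean per series, Batf3, Junb, Fosl2 and Batf kept their calls (limma, adjusted p = 3.28e-06, 3.52e-05, 0.00687 and 0.0219). Jun lost its call there, and 1840 genes were called in place of 2817. At 0 ng/ml 3 of 8 members were called, all higher, beside 9.64% of all genes, 5.34% higher and 4.30% lower. At 0.2 ng/ml it was 3 of 8, all higher, beside 15.5%, 9.11% higher and 6.38% lower. At 2 ng/ml it was 4 of 8, all higher, beside 16.0%, 7.82% higher and 8.16% lower. With DMOG 4 of 7 members were called, all higher, beside 60.8% of all 9884 genes called in either direction, 27.7% higher and 33.2% lower. The share of members called with DMOG is near that of all genes. The median of the 7 members was 0.39, against -0.03 for all genes. Batf3 averaged 1.38, 0 and 0 FPKM in WT at 0, 0.2 and 2 ng/ml and 0.0194 with vehicle. It thus passed the filter through the tKO and DMOG groups. Over the doses and with DMOG it could be counted only as higher. T cell markers summed lower in DMOG than in vehicle, as given above, and their part in these values was not tested.

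Along the TGF-b doses, members moved in both directions. At 2 against 0 ng/ml in WT, Batf, Batf3 and Junb fell and Jun rose, 4 of 8 beside 15.7% of all genes, 7.79% higher and 7.91% lower. In tKO, Batf and Batf3 fell and Jun rose, 3 of 8 beside 18.0%, 7.59% higher and 10.4% lower. At 0.2 against 0 ng/ml in tKO the same 3 members were called in the same directions, beside 2.48% of all genes, 1.70% higher and 0.782% lower, which is 257 genes, or 413 with the labelled series as a block. Jun, at 1.44 ± 0.33 (log2, SE; adjusted p = 0.0363), lost its call there without any of 8 single libraries, tKO at 0 ng/ml replicate 2, tKO at 0.2 ng/ml replicate 1 and both libraries of tKO at 2, WT at 0.2 and WT at 2 ng/ml (adjusted p up to 0.245), and without the filter (adjusted p = 0.141). In WT at 0.2 against 0 ng/ml limma called 0 of 8 members after adjustment, or 1 (Batf3 or Jun) under the alternatives given with those genes, beside 1.59% of all genes, 0.918% higher and 0.676% lower, while 4 (Batf, Batf3, Junb and Jun) had an unadjusted p under 0.05. The interaction called 2 of 8, Batf3 and Junb, beside 2.97% of all genes, 1.55% higher and 1.43% lower. The comparisons at 2 and 0.2 ng/ml share their 0 ng/ml libraries.

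**Figure D4:**
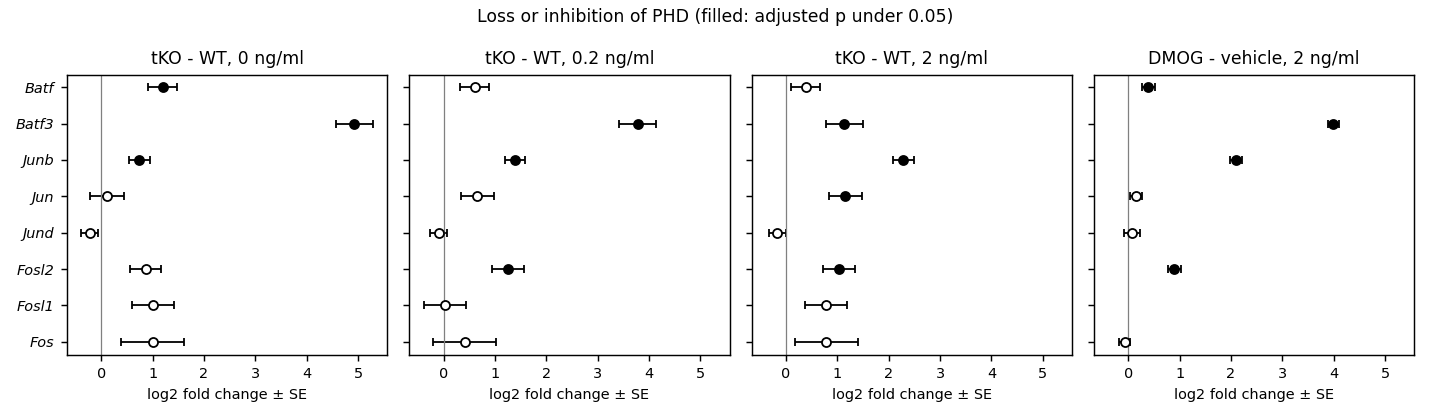
Log2 fold change on the log2(FPKM + 1) scale, ± SE, of each tested member for tKO minus WT at 0, 0.2 and 2 ng/ml TGF-b and for DMOG minus vehicle; filled points passed an adjusted p of 0.05, and Fosl1 was not tested in experiment 2. On this scale the Batf3 difference is 4.92, 3.78 and 1.14 at 0, 0.2 and 2 ng/ml, where WT at 0.2 and 2 ng/ml is listed at 0, and that of Junb is 0.74, 1.39 and 2.28, while Jund stays near 0.

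**Figure D5:**
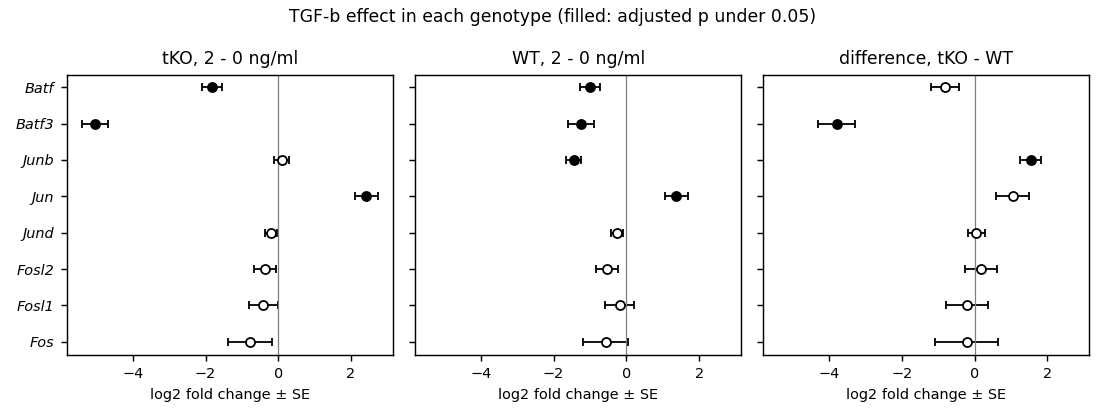
Log2 fold change ± SE at 2 against 0 ng/ml TGF-b in tKO and in WT, and the difference of those effects, for each tested member; filled points passed an adjusted p of 0.05. Junb falls in WT and stays at 0.09 in tKO, Batf3 falls most in tKO, and Jun rises in both genotypes.

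The DNA-binding partners of BATF were higher as well. Irf4, which BATF-JUN dimers recruit in T cells, had 166 and 202 FPKM in tKO at 0 ng/ml, 160.1 and 202 at 0.2 ng/ml and 127 and 111 at 2 ng/ml. In WT, Irf4 had 65.4 and 64.9 FPKM at 0 ng/ml, 54.6 and 52.8 at 0.2 ng/ml and 61.3 and 42.0 at 2 ng/ml. Every tKO library was above every WT library, and the log2 fold change over the doses was 1.47 ± 0.11 (SE; adjusted p = 6.16e-07). Irf8, the related factor of lymphoid and myeloid cells, lay at 187 to 354 FPKM in tKO, against 71.9 to 145 in WT (1.40 ± 0.14, adjusted p = 8.08e-06). With DMOG, Irf4 had 258, 209.9 and 247 FPKM, against 40.8, 38.2 and 40.1 with vehicle (2.55 ± 0.11, adjusted p = 3.27e-12). Irf8 had 346, 349 and 349 FPKM with DMOG and 113, 95.0 and 96.3 with vehicle (1.77 ± 0.11, adjusted p = 2.76e-10). B cell markers, since B cells also express Irf4 and Irf8, summed to 16.0 to 86.0 FPKM in tKO and 15.3 to 62.7 in WT, and to 0.849 to 1.20 in DMOG and 6.87 to 11.3 in vehicle, and their part was not tested.

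Other basic leucine zipper factors that can pair with AP-1 or compete for its sites moved in part with them. Of 21 tested, 9 rose and 1 fell in tKO over the doses, beside 13.9% of all genes higher and 13.3% lower, with a list median of 0.27 against -0.02 for all genes. Atf3, a stress-induced repressor, lay at 25.9 to 277 FPKM in tKO, against 0 to 7.56 in WT, where 2 libraries were listed at 0 (log2 fold change 5.29 ± 0.29, SE; adjusted p = 2.68e-08). Nfil3, a repressor that acts in lymphocytes, rose by 1.69 ± 0.12 (adjusted p = 2.82e-07), Maff, a small MAF protein, by 1.37 ± 0.23 (adjusted p = 0.000604), and Crem, a cAMP-responsive modulator, by 1.06 ± 0.11 (adjusted p = 9.38e-06). With DMOG 10 of 23 tested rose and 6 fell, beside 27.7% of all genes higher and 33.2% lower, with a median of 0.18 against -0.03. Atf3 rose by 6.08 ± 0.11 (adjusted p = 5.18e-17), Maff by 1.82 ± 0.11 (adjusted p = 1.97e-10) and Nfil3 by 1.76 ± 0.12 (adjusted p = 9.12e-10). Atf3 averaged 0.172 FPKM with vehicle and passed the filter through the DMOG libraries, so it could be counted only as higher there. Maf, the large MAF factor of Th2 and IL-10-producing cells, fell by 2.52 with DMOG (SE 0.13, adjusted p = 1.82e-11).

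Several of these partners differed between TGF-b doses. Maf rose at 2 against 0 ng/ml by 2.66 ± 0.33 in tKO (log2, SE; adjusted p = 0.000199) and by 3.73 ± 0.33 in WT (adjusted p = 1.43e-05). Cebpb, a C/EBP factor of inflammation and metabolism, had 14.1 and 13.3 FPKM in tKO at 0 ng/ml and 55.3 and 69.2 at 2 ng/ml, while WT libraries ran from 14.7 to 23.8 FPKM over the doses. The tKO effect was 2.09 ± 0.24 (adjusted p = 0.000153), and its interaction of 2.10 ± 0.35 (adjusted p = 0.00655) passed except under 1 of 17 alternatives (adjusted p = 0.0568). Of the 21 tested, 3 rose and 4 fell in tKO, beside 7.59% of all genes higher and 10.4% lower, and 2 rose and 4 fell in WT, beside 7.79% higher and 7.91% lower.

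Of 15 MAP kinase cascade genes tested, 2 rose and 2 fell in tKO over the doses, against the 13.9% and 13.3% of all genes, with a median of -0.10, and the share called, 4 of 15, is near the 27.2% of all genes. Map2k1, the MEK1 kinase above ERK, lay at 126 to 144 FPKM in tKO, against 44.0 to 72.4 in WT, with no overlap (1.35 ± 0.09, adjusted p = 1.53e-07). It was higher with DMOG too, by 1.72 ± 0.11 (adjusted p = 6.72e-10). Rasgrp1, which activates Ras below the T cell receptor, fell by 1.07 in tKO (SE 0.12, adjusted p = 1.45e-05) and by 1.85 with DMOG (SE 0.13, adjusted p = 1.55e-09). Map2k3, a kinase above p38, rose by 0.78 ± 0.11 in tKO (adjusted p = 0.000136). With DMOG 3 of 15 rose and 6 fell, 9 of 15 in all beside 60.8% of all genes, with a median of -0.19.

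MAP kinase phosphatases, which switch these cascades off, had 4 of 9 tested higher and 1 lower in tKO over the doses, beside 13.9% and 13.3% of all genes, with a median of 0.65. The lower one, Dusp7, lost its call under 2 of 22 alternatives (adjusted p up to 0.0725). Dusp5, specific for ERK, rose by 1.40 ± 0.16 (log2, SE; adjusted p = 1.89e-05), Dusp14 by 1.06 ± 0.13 (adjusted p = 3.17e-05) and Dusp4 by 0.79 ± 0.12 (adjusted p = 0.000211). With DMOG 5 of 9 rose and 4 fell, where 27.7% of all genes rose and 33.2% fell. Dusp14 rose there by 1.007 ± 0.11 (adjusted p = 4.83e-07) and Dusp10 fell by 1.15 (SE 0.11, adjusted p = 1.72e-07).

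The next 3 lists stand beside 27.2% of all genes called in tKO over the doses, 13.9% higher and 13.3% lower. DMOG called 60.8% of all genes, 27.7% higher and 33.2% lower. Of 6 ubiquitin ligases and adaptors of JUN proteins, 1 (Ndfip1) rose and 1 (Det1) fell in tKO over the doses, and 0 rose and 3 fell with DMOG. Of 8 NFAT and calcineurin genes, whose products join AP-1 at cytokine genes, 1 (Ppp3r1) rose and 2 (Ppp3ca and Rcan1) fell in tKO, and 0 rose and 4 fell with DMOG. There Ppp3ca, a calcineurin catalytic subunit, fell by 1.21 (log2, SE 0.11, adjusted p = 4.49e-08) and Rcan1, a calcineurin regulator, fell by 1.099 (SE 0.11, adjusted p = 1.29e-07). Of the SRF and ELK group, which drives Fos in the early response, 0 of 5 rose and 1 (Elk3) fell in tKO, and 0 of 6 rose and 6 fell with DMOG, with a median of -0.39, while Fos itself did not pass. The 6 calls in tKO were weak: of 22 alternatives, 9 ended that of Ndfip1, 11 that of Det1, 13 those of Ppp3ca and Rcan1, 14 that of Elk3 and 15 that of Ppp3r1 (adjusted p up to 0.301).

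Genes known as AP-1, NFAT-AP-1 or BATF-IRF targets in T cells had 8 of 13 tested higher and 1 lower in tKO over the doses, beside 13.9% of all genes higher and 13.3% lower, with a median of 1.05 against -0.02 for all genes. Il9, the Th9 cytokine, lay at 88.6 to 820.1 FPKM in tKO, against 0 to 2.67 in WT (7.32 ± 0.32, log2, SE; adjusted p = 3.87e-09). Csf2, which encodes GM-CSF, lay at 14.9 to 211 FPKM in tKO, against 0.384 to 2.71 in WT (4.65 ± 0.23, adjusted p = 1.39e-08). Both were far apart between genotypes. With DMOG 8 of 15 rose and 6 fell, beside 27.7% and 33.2% of all genes, with a median of 0.98 against -0.03. Il9 had 826, 598 and 583 FPKM with DMOG and 0.302, 0.371 and 0.387 with vehicle (8.93 ± 0.13, adjusted p = 7.54e-18), and Csf2 rose by 5.18 ± 0.13 (adjusted p = 2.04e-15). Some list genes passed the filter only through the groups where they were high. Il4 and Il3 averaged under 1 FPKM in every WT group, as did Il9, Csf2, Il3, Ifng, Il10 and Il4 with vehicle. They could be counted only as higher there, so the counts and medians of this list are in part set by the filter.

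Il4, a Th2 cytokine, had 37.9 and 56.4 FPKM in tKO at 0 ng/ml, 2.53 and 1.91 at 0.2 ng/ml, and 0.254 FPKM and a value listed at 0 at 2 ng/ml. WT libraries were at 0.915 FPKM or lower, 4 of 6 listed at 0. Its TGF-b effect differed between genotypes by -5.66 ± 0.54 (log2, SE; adjusted p = 0.000489). Il4 and Batf3 were each high in tKO at 0 ng/ml and low at 2 ng/ml.

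Genes whose group profile over the 6 groups of experiment 1 was nearest to a member's were ranked by the root mean square difference of mean-centred log2(FPKM + 1) values. For Batf3 these were Pde1a, a phosphodiesterase, at 0.30, Il5, a Th2 cytokine, at 0.43, and Il3, a haematopoietic cytokine, at 0.77. Pde1a averaged 82.5, 10.7 and 1.02 FPKM in tKO at 0, 0.2 and 2 ng/ml and 0.437 FPKM in WT at 0 ng/ml, and was listed at 0 in the other WT libraries. For Junb they were Runx3, a T cell lineage factor, at 0.14, Pdia5 at 0.15 and Bcl2l1, which encodes the survival protein BCL-XL, at 0.15. Runx3 averaged 25.9, 25.03 and 22.1 FPKM in tKO at 0, 0.2 and 2 ng/ml, against 14.2, 7.61 and 3.54 FPKM in WT. For Jun they were Ikzf2, which encodes Helios, at 0.13, Ociad2 at 0.14 and Rab11fip4 at 0.15. Ikzf2 averaged 0.712, 3.14 and 8.90 FPKM in tKO, against 0.822, 2.19 and 3.38 FPKM in WT at 0, 0.2 and 2 ng/ml.

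For Batf the genes named are Cdk6, a cell cycle kinase, at 0.16 and Faim3 at 0.16. For Fosl2 they were Dennd5a at 0.07, Ccdc115 at 0.10 and Robo3 at 0.11. For Fosl1 they were Focad at 0.08, 4632434I11Rik at 0.10 and St3gal1 at 0.12, and for Fos they were Cbwd1 at 0.08, Nxn at 0.14 and Casc4 at 0.14. Jund ranged by 0.43 log2 units over the groups, under the 1 unit required, and was not ranked. These likenesses describe group means of the libraries used above and carry no test.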

How the data were processed

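The 18 libraries of mouse CD4+ T cells were made with a Clontech SMARTer Ultra kit, and the instrument differed between experiments 1 and 2, per the labels' protocols. The authors deposited FPKM values per library, per the file headers. Trimmomatic was among the tools, with TopHat, Cufflinks and Cuffdiff, on build mm9, per the submitters' processing notes. The sources used here state neither their versions nor their roles. The tables hold no read counts that were used, and a linear model was fitted.

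Exact duplicate rows (17 in experiment 1, 291 in experiment 2) were dropped, and FPKM values of rows with the same symbol were summed; 8483 entries of experiment 1 without a symbol were left out. Genes averaging 1 FPKM or more, 10354 in experiment 1 and 9884 in experiment 2, entered a limma fit (version 3.58.1, R 4.3.3) of log2(FPKM + 1). Each group had its own coefficient, all libraries of an experiment gave the spread, and the variance could trend with level. A fold change on this scale is smaller than the FPKM ratio where values are low. Tests are moderated and two-sided, with Benjamini-Hochberg adjustment over all genes of a comparison and a threshold of 0.05. The fit was also run on simulated data with large planted changes and noise drawn independently for each library. That run does not bear on deviations shared by a series or on small effects. Same-numbered libraries deviated together across the doses in tKO (correlations over genes 0.110, 0.127 and 0.416). There the numbers also separate libraries with and without Y-linked transcripts. In WT the correlations were 0.0573, 0.0899 and 0.186, and between genotypes they ran from -0.11 to 0.25, so size alone does not set tKO apart. The labels name no shared animal. The fit reported has no replicate block in any comparison, the tKO doses included, and a block was run as an alternative. Each table was normalized separately, so tests stayed within a table. Promoter sequences came from RefSeq on GRCm38.p6, and no coordinates were converted.

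The members and lists were chosen with earlier results of these data known, and no list was tested. All members were named, together with up to 4 called genes of smallest p per list and comparison and the 3 genes nearest in profile, of which 1 is not reported here. Alternatives were a pseudocount of 0.1, no filter, quantile normalization, a replicate block, the highest row per symbol, means per labelled series, and leaving out each library or series.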

Additional observations from a re-analysis of the deposited data

Results flagged for a closer look

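The effect of 2 against 0 ng/ml TGF-b on Batf3 differed between genotypes, by -3.79 on the log2(FPKM + 1) scale in an interaction test over all genes (limma, adjusted p = 0.00201). All 4 libraries of tKO and WT at 2 ng/ml were lower than the libraries of the same genotype at 0 ng/ml. With a pseudocount of 0.1 the interaction was -1.89 (adjusted p = 0.221).

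The same TGF-b effect on Junb differed between genotypes by 1.54 (limma, adjusted p = 0.0125). In WT both libraries at 2 ng/ml were below both at 0 ng/ml, and in tKO the groups overlapped. The interaction call was lost under 6 of 17 alternatives, among them the fit without the filter on low values (adjusted p = 0.0631).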

How the results depend on the processing

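Over the 79 member values, 31 of them called, 1341 alternative values were computed. Of these, 1236 kept their side of the threshold, 89 lost a call and 16 gained one. The sign turned in 0 cases where the fit reported or the alternative called the value. Some values called in neither did change sign. Jun in tKO against WT at 0 ng/ml, 0.11 in the fit reported, was as low as -0.28. Of the 31 calls, 16 were lost under at least 1 alternative, as given beside each in the report. Of 140 values of list genes, 84 kept their call under every alternative run and 56 lost it at least once. Ndfip1 at 2 against 0 ng/ml in tKO, -0.48 in the fit reported, reversed, at 0.0915 with quantile normalization; the cause was not tested.

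The number of genes called for tKO against WT over the doses was 2817 and fell to 1840 with 1 mean per labelled series. Without the filter, 72 in place of 165 genes were called at 0.2 against 0 ng/ml in WT and 157 in place of 308 for the interaction. The fit reported has no replicate block. Same-numbered deviations correlated at 0.06 to 0.42 across the doses within a genotype, -0.11 to 0.25 between genotypes and -0.19 to 0.44 in experiment 2. With a replicate block 283 genes were called at 0.2 against 0 ng/ml in WT, 413 in tKO in place of 257, and 686 for the interaction. The block also brought Fos and Fosl1 over the doses (adjusted p = 0.0322 and 0.0447), Jun at 0.2 ng/ml, Jun at 0.2 against 0 ng/ml in WT and the Jun interaction (adjusted p = 0.0422) past the threshold, and changed no other call of a member. On means per labelled series Fos and Fosl1 did not pass (adjusted p = 0.216 and 0.159).

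Leaving out 1 library or series gave 1303 to 3209 genes for tKO against WT over the doses, 513 to 1235 at 0 ng/ml (998 with all libraries), 749 to 2667 at 0.2 ng/ml (1604) and 717 to 2160 at 2 ng/ml (1655). It gave 31 to 237 at 0.2 and 660 to 2091 at 2 against 0 ng/ml in WT (165 and 1626), 108 to 708 and 579 to 2388 in tKO (257 and 1867), 78 to 719 for the interaction (308) and 5282 to 6295 for DMOG (6014). In experiment 1 the highest of these counts each came without tKO at 0.2 ng/ml replicate 1 or replicate 2, and the lowest without a library of a group compared, or, over the doses, without the WT series of replicate 2. Where a group was left with 1 library, that library was assumed to vary like the other groups. What depth limits is unknown, since no depth is given. Values listed at 0 give no bound, and Fosb and, in experiment 2, Fosl1 averaged under the filter.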

Other observations

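Ccr8, a chemokine receptor on the AP-1 target list, was higher in tKO over the doses and lower with DMOG. In tKO at 2 ng/ml TGF-b it had 663 and 629.8 FPKM, against 465 and 404 FPKM in WT, a log2 difference of 0.58 ± 0.19 (SE) that missed the threshold (limma, adjusted p = 0.0578), while over the doses it was 1.37 ± 0.11 higher in tKO (adjusted p = 8.41e-07). With DMOG at 2 ng/ml it had 203, 124 and 123 FPKM, against 400.0, 534 and 437 FPKM with vehicle, and fell by 1.63 (SE 0.17, adjusted p = 2.14e-07). The experiments were not tested against each other. Within experiment 1 the TGF-b effect on Ccr8 differed between genotypes by -1.66 ± 0.27 (adjusted p = 0.00655).

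Csf2 and Atf3 fell with TGF-b in tKO, as Batf3 and Batf did. At 2 against 0 ng/ml Csf2 fell by 3.18 (SE 0.41, adjusted p = 0.000263) and Atf3 by 3.16 (SE 0.50, adjusted p = 0.00123). The Atf3 call was lost under 1 of 17 alternatives (adjusted p = 0.0928).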
